A study of Xenopus laevis with 18 samples.

Results

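The endoplasmic reticulum (ER) fraction of mature eggs was compared with that of immature oocytes of the frog Xenopus laevis. The comparison took the 3 ER libraries labelled egg and the 3 ER libraries labelled oocyte, picked by labelled stage and fraction, which are 6 of the 18 libraries of the series. The eggs were defolliculated stage VI oocytes cultured at 18 °C in medium with 2 µM progesterone, the steroid that induces maturation. The oocytes were defolliculated stage VI cells held at the same temperature in the medium without progesterone. Each library came from the ER fraction of 4 cells, to which 5 spike-in RNAs had been added before extraction, and the remaining 12 libraries were the cytosol and pellet of both stages. The design calls the 3 libraries of a group biological replicates. Nothing in the labels names the frog or culture behind a library, and p-values therefore cover only the spread among these libraries, which may be technical.

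A full-grown oocyte is arrested in prophase of meiosis and stores maternal mRNAs for the embryo. Progesterone restarts meiosis, the nuclear envelope breaks down, and the cell stops at metaphase of the second division as a fertilizable egg. The ER carries mRNAs of secreted and membrane proteins, whose nascent chains direct the ribosome to its membrane, and it also binds mRNAs of cytosolic proteins. In the frog oocyte a part of the ER lies with vegetally localized mRNAs such as Vg1 (gdf1), which travel to the vegetal cortex along ER and microtubules. During maturation the ER is rearranged and its calcium release is sensitized for fertilization.

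Egg ER libraries held 23151603 to 27827907 estimated counts and oocyte ER libraries 27433721 to 29792589. Replicates correlated at r = 0.993 to 0.996 across transcripts. Egg replicate 1 stood apart from its group. Its chi-square per degree of freedom was 14.3 and 19.9 against the other egg libraries, which had 3.78 between them. The transcript models named ccdc50.L, among them the short gene47265 and gene43416, were summed. Together they took 29.6% of the summed TPM (transcript abundance scaled to a fixed total) in egg replicate 1. In each of the other egg libraries they took 21.9%, and in oocyte ER 16.9 to 17.8%. The sequence of gene47265 was not examined, so the RNA behind it is not known. The change of gene47265, 0.66 ± 0.34 (log2 fold change ± SE), did not pass the test (edgeR adjusted p = 0.158). It did pass in a fit of the 6 ER libraries alone (0.67, edgeR adjusted p = 0.0049) and without the filter on low counts (0.71, edgeR adjusted p = 3.7e-19). The first principal component of the 6 libraries held 56.2% of the variance and parted the stages, with eggs at -33.9 to -21.7 and oocytes at 25.1 to 28.5. Oocyte identity mRNAs such as zp2, gdf9 and zar1 summed to 623 to 755 TPM in egg ER and 711 to 775 TPM in oocyte ER. Of the 10 transcripts that define follicle cells, 3 were at 0 in all 6 libraries and the highest reached 2.13 TPM. All 10 that define blood and liver stayed under 1 TPM and 5 were at 0.

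The ER's part of the RNA was lower in eggs. On the attomolar scale, which the authors derived from TPM by regression on the spike-ins, the egg ER libraries summed to 20289, 19851 and 20576 aM and the oocyte ER libraries to 26343, 30101 and 33100 aM. The groups did not overlap. The mean was 20238 ± 365 aM in eggs and 29848 ± 3385 aM in oocytes (SD, n = 3 each), a ratio of 0.678 (exact two-sided permutation p = 0.1, the smallest that 3 against 3 allow). In every replicate number of both stages, the attomolar sums of cytosol, ER and pellet add to the same total. An ER sum is therefore the ER's part of a fixed total and not an absolute amount. Cytosol sums were 35355, 42533 and 41314 aM in eggs and 31877, 33974 and 29308 aM in oocytes. Summed TPM over spike-in TPM, taken in each ER library alone, gave a ratio of 0.682. Without the 20 most abundant transcripts the egg sums spread more, at 9692, 12905 and 13566 aM. The oocyte sums were then 18822, 19739 and 21587 aM. By the authors' percent values, the median transcript had 16.1, 19.2 and 20.9% of its copies in the egg ER and 31.1, 33.7 and 35.6% in the oocyte ER. These shares did not overlap either, and differed by -14.7 percentage points (exact two-sided permutation p = 0.1). They come from the same attomolar values with their fixed total, so they largely restate the ER sums and are no second result. The shares were taken over 18500 transcripts in eggs and 18779 in oocytes with at least 1 TPM in all libraries of the stage. Of the spike-in counts, egfp gave 87.3 to 88.5% in egg ER and 88.2 to 89.7% in oocyte ER. Scaling by summed spike-in counts thus rests mostly on 1 RNA, while the weight of egfp in the authors' regression is not known.

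Single transcripts were therefore compared on 2 scales. The edgeR fit sets the typical transcript to no change and asks which transcripts gained or lost relative to the rest of the ER. Of 25938 transcripts tested, 3218 were higher in egg ER (12.4%) and 4184 lower (16.1%) at an adjusted p under 0.05. By at least 2-fold, 340 were higher and 302 lower. When egg replicate 1 was left out, 3066 were higher and 3209 lower. The attomolar scale keeps the smaller ER part of eggs in view. There limma called 222 transcripts higher (0.856%) and 15124 lower (58.3%), with a median log2 fold change of -0.55. Scaling the counts by spike-ins in edgeR shifted the median by -0.71 and gave 205 higher and 15894 lower. Of the 3218 transcripts higher by edgeR, 215 were also higher in attomolar terms and 806 were lower. Of the 4184 lower by edgeR, 4172 were lower in attomolar terms. Rose and fell denote calls of the edgeR fit unless the attomolar scale is named. In bulk fractions, less ER recovered per cell, less RNA per ER and a larger part of the RNA in other fractions cannot be told apart.

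**Figure D1:**
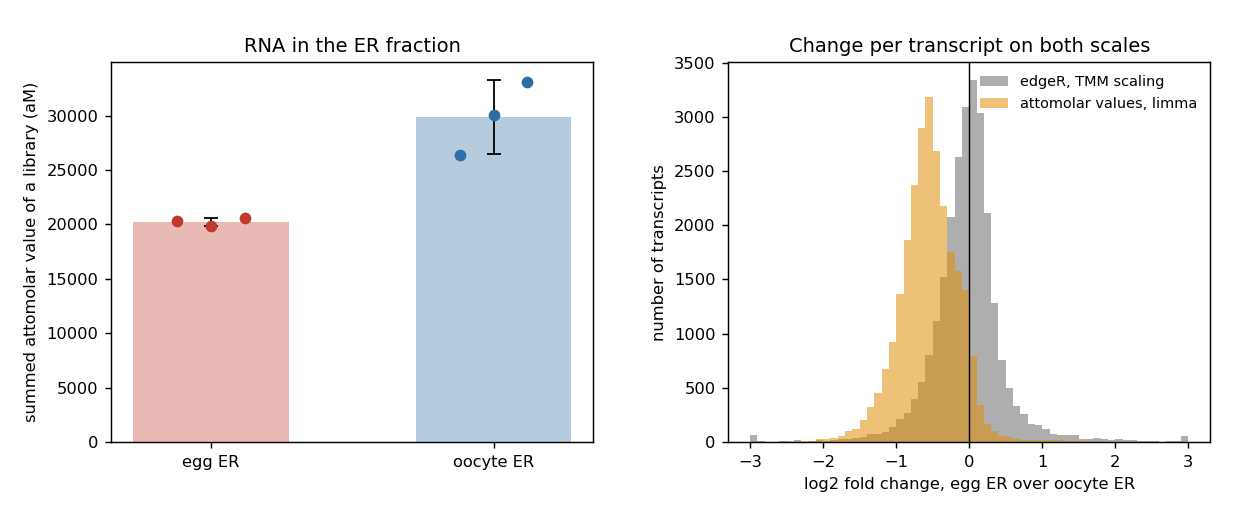
Left, summed attomolar value of each ER library (points), with the group mean (bar) and SD (error bar), for egg and oocyte ER. Right, number of transcripts by log2 fold change, egg ER over oocyte ER, by edgeR with TMM scaling and by limma on attomolar values, with values beyond 3 in either direction drawn at the edge. The 3 egg libraries lie between 19851 and 20576 aM, below the oocyte libraries, and the attomolar distribution is shifted to a median of -0.55.

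Among transcripts with a mean log2 CPM of 5 or more, the highest gains in egg ER were mostly of vegetally localized mRNAs. Of the 12 highest named by rule, 10 belong to the vegetal or extremely vegetal classes of the deposited animal-vegetal classification. All 12 were also higher on the attomolar scale, higher in egg cytosol and lower in egg pellet than in the same fraction of oocytes. Their ER change was also tested against their cytosol change in edgeR. It was lower for sybu.L (-2.14), znf516.S (-1.53), naga.S (-1.30), acsl1.L (-1.23), mov10.L (-0.92), cdk5r2.S (-0.79) and pcsk6.L (-0.66). For pgat.L it was higher (1.18), and for the rest of the 12 it was uncalled. The lysosomal hydrolase naga.S had 1006, 1113 and 1048 CPM (counts scaled to library size) in egg ER against 132, 222 and 134 CPM in oocyte ER, a log2 fold change of 2.70 ± 0.16 (edgeR adjusted p = 7.8e-11). Every egg value was above every oocyte value, as the naming rule required, and oocyte replicate 2 was the highest of its group. The same replicate was the highest oocyte value for all 12 of these transcripts and for 121 of 160 transcripts of the 2 vegetal classes, against 9243 of 25938 tested, so the oocyte level of these mRNAs varied with the library.

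Several of these mRNAs encode signals or their processing enzymes. The gene gdf1.S encodes Vg1, a TGF-beta family ligand that induces mesoderm. One of its transcript models (gene47490) had 79.1, 85.7 and 88.8 CPM in egg ER against 17.4, 21.4 and 17.1 CPM in oocyte ER (2.18 ± 0.12, edgeR adjusted p = 3.1e-11). The other 3 models tested rose by 2.22 to 2.42, and as near-identical models they may share reads, so their single values are uncertain. The mRNA of pcsk6.L, a proprotein convertase that cleaves TGF-beta family precursors, had 99.7, 106 and 95.4 CPM in egg ER against 22.9, 26.4 and 20.4 CPM in oocyte ER (2.11 ± 0.11, edgeR adjusted p = 1.5e-11). The maternal Wnt ligand wnt11b.L had 85.4, 108 and 109 CPM in egg ER against 26.7, 38.0 and 27.4 CPM in oocyte ER (1.72 ± 0.12, edgeR adjusted p = 1.5e-09). The naming rule required that the groups not overlap, so their separation in these 3 cases is no added evidence.

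For several of these mRNAs the share of copies in the ER was higher in eggs, where that of the median transcript was lower. In eggs 31.7 ± 7.1% of gdf1.S (gene47490) lay in the ER, against 13.4 ± 3.2% in oocytes (SD, n = 3 each). For wnt11b.L the share was 24.5 ± 5.7% in eggs and 12.8 ± 4.6% in oocytes. For pcsk6.L it was 16.5 ± 1.7% in eggs and 12.2 ± 3.3% in oocytes, a gap similar to the spread between replicates. Others of the 12 did not share this. The share was 15.3 ± 1.7% in eggs and 18.97 ± 6.0% in oocytes for mov10.L, 17.7 ± 2.1% in eggs and 21.5 ± 6.8% in oocytes for acsl1.L, and 21.1 ± 3.5% in eggs and 21.3 ± 6.1% in oocytes for cdk5r2.S. For otx1.L it was 26.2 ± 2.0% in eggs and 25.8 ± 8.3% in oocytes. These differences in shares were not tested.

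Germ plasm and motor transport mRNAs formed the next group. The germ plasm transcript pgat.L had 68.6, 92.9 and 78.8 CPM in egg ER against 21.5, 24.2 and 19.4 CPM in oocyte ER (1.89 ± 0.12, edgeR adjusted p = 4.0e-10). The kinesin adaptor syntabulin, sybu.L, rose by 1.81 ± 0.11 and its homeolog sybu.S by 1.81 as well. In cytosol sybu.L rose much more, by 3.94 ± 0.12, and the difference between the fractions passed the test (-2.14, edgeR adjusted p = 1.7e-09). The kinesin kif13b.L rose by 1.64 ± 0.12, the Cdk5 activator cdk5r2.S by 1.58 ± 0.08 and the RNA helicase mov10.L by 1.37 ± 0.10. Also among the 12 were znf516.S, a zinc finger mRNA (2.83 ± 0.26), the homeobox mRNA otx1.L (1.69 ± 0.12) and acsl1.L, which activates long-chain fatty acids (1.34 ± 0.10). The values of znf516.S are those of 1 of 2 transcript models with that name (gene34535, 493 nucleotides, in the animal class). This model had 93.2, 109 and 86.5 CPM in egg ER against 8.78, 24.7 and 7.65 CPM in oocyte ER, and the other is not described here.

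Over whole classes the order followed the deposited animal-vegetal classification, which its column header credits to Sindelka and colleagues. It was made along the axis of the cell and not by fraction. Of the 26 extremely vegetal transcripts, 24 rose and 0 fell, with a median of 1.57. Of the 134 vegetal transcripts, 112 rose and 3 fell, with a median of 0.69. The class named other had 90 of 136 higher and 5 lower (median 0.30). On the animal side, 23 of 286 extremely animal transcripts rose and 115 fell (median -0.23), and 1734 of 10747 animal transcripts rose and 2683 fell (median -0.02). The background was 12.4% higher and 16.1% lower over all transcripts, with a median of -0.01, and was not matched to the classes by abundance. The 24 extremely vegetal and 112 vegetal gains became 24 and 114 without egg replicate 1, and 24 and 114 without oocyte replicate 2. On the attomolar scale 16 of the 26 extremely vegetal transcripts were higher and 0 lower, while the vegetal class had 24 higher and 19 lower. The background on that scale was 0.856% higher and 58.3% lower.

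In shares, the extremely vegetal class stood apart in oocytes. Its median transcript had 14.8, 19.01 and 18.6% of copies in the egg ER and 10.3, 19.7 and 12.9% in the oocyte ER, where the groups overlap. The extremely animal class had 15.05, 20.9 and 22.5% in the egg ER and 33.0, 37.5 and 40.8% in the oocyte ER, which do not overlap. The classes thus had similar ER shares in eggs and different ones in oocytes. These class differences in shares were not tested.

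**Figure D2:**
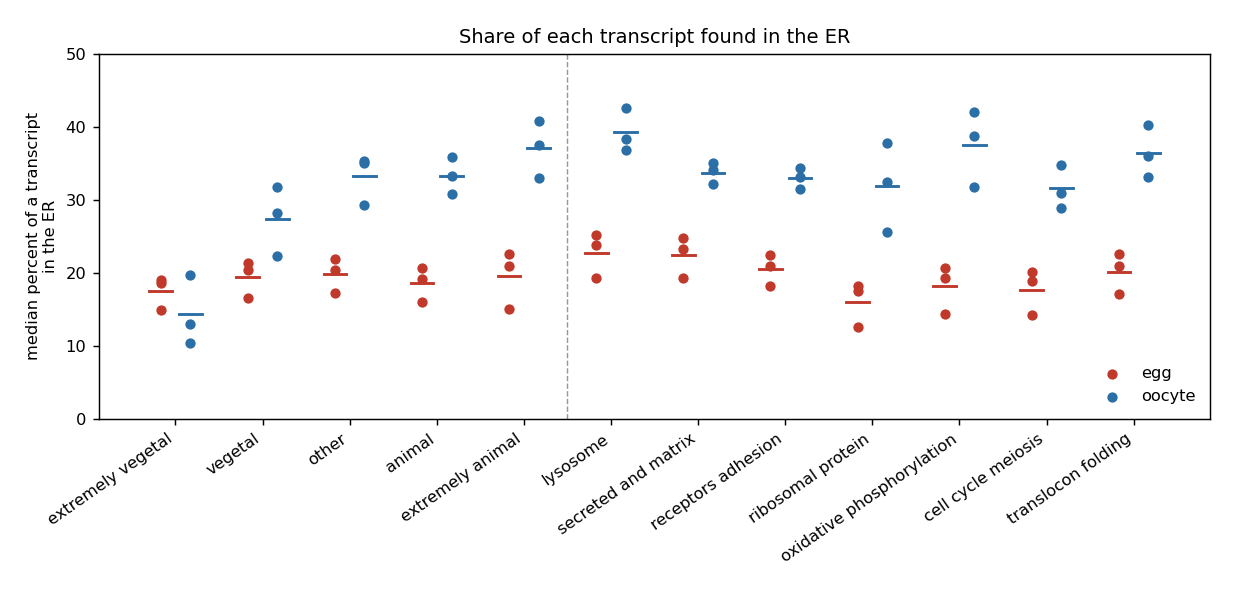
Median percent of a transcript's copies found in the ER, by the authors' percent values, for each replicate number (points) and their mean (line), in eggs and in oocytes. The 5 animal-vegetal classes stand left of the dashed line and 7 gene lists right of it. Egg shares lie between 12.5 and 25.2% in all sets shown, and of these 12 sets only the extremely vegetal class has overlapping egg and oocyte values.

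The list of vegetal and germ plasm mRNAs had 31 of 59 tested members higher and 6 lower, with a median of 0.40. Leaving out egg replicate 1 gave 34 and 2. In the cytosol 41 of its members rose and 3 fell, where 18.4% of all tested rose and 18.6% fell. The ER change was higher than the cytosol change for 5 members and lower for 21 (median -0.23). Over all tested these shares were 12.4% and 14.7%. Its median ER share was 15.9, 19.9 and 21.2% in eggs and 20.7, 29.7 and 27.7% in oocytes, which overlap. Besides those above, grip2.L, a germ plasm scaffold mRNA, rose by 2.43 ± 0.19 with 47.0, 73.5 and 69.5 CPM in egg ER against 10.4, 16.05 and 9.16 CPM in oocyte ER. The germ cell RNA-binding protein mRNA dazl.L rose by 1.09 ± 0.20. Its attomolar change of 0.47 did not pass the test. The T-box factor vegt showed a homeolog difference. The S copy rose by 0.41 ± 0.06 and the L copy fell by 0.32 ± 0.09, but the L call was lost without egg replicate 1 (-0.18) or without oocyte replicate 2 (-0.20), and under spike-in scaling the S copy stood at -0.29. Of 37 animal pole mRNAs 8 rose and 14 fell, with a median of -0.14. Both homeologs of dnmt1 were at the bottom of this list.

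The most reduced transcripts of this abundance differed in their pellet. Of the 12 lowest transcripts named by rule, 7 were lower in all 3 fractions of eggs, while 4 were higher in the egg pellet. All 12 were lower on the attomolar scale, which is no added evidence, since 4172 of all 4184 falls were. Those lower in all 3 fractions include stress and immediate early mRNAs. The growth arrest gene gadd45a.S had 10.97, 9.89 and 14.6 CPM in egg ER against 105, 116 and 118 CPM in oocyte ER (-3.25 ± 0.11, edgeR adjusted p = 1.3e-14), and gadd45a.L fell by 4.1 ± 0.12. The changes of gadd45a.S in cytosol (-3.18) and pellet (-2.58) were of the same order, and its ER against cytosol difference did not pass the test (-0.07, edgeR adjusted p = 0.80). The thioredoxin-binding protein mRNA txnip.L fell by 2.00 ± 0.13, the kinase mRNA pim1.L by 1.77 ± 0.07 and the immediate early mRNA ier2.L by 1.57 ± 0.10. The endothelial lipase mRNA lipg.L had 68.8, 72.3 and 72.7 CPM in egg ER against 239, 232 and 242 CPM in oocyte ER (-1.74 ± 0.06), and the mRNAs tmem52.S, of a membrane protein, and anks3.L, of an ankyrin repeat protein, fell by 1.95 ± 0.09 and 2.13 ± 0.08. Egg and oocyte libraries did not overlap for those named among the 12, as the rule required.

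Of 101 stress and early response mRNAs, 12 rose and 29 fell, with a median of -0.13. With egg replicate 1 left out they were 7 and 23. Further losses in this list were jun.L (-2.05), nr4a1.L (-1.24) and fos.L (-1.11), all transcription factors induced by stimulation in many cells. Outside it, the ephrin ligand efna1.S fell by 2.94 ± 0.10, from a list of receptors and adhesion proteins that otherwise leaned upward. It had 10.02, 7.69 and 11.7 CPM in egg ER against 71.6, 72.2 and 81.3 CPM in oocyte ER.

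The mRNAs dnmt1.S, dnmt1.L, smtn.S and mettl2b.L were lower in egg ER and higher in egg pellet. In the cytosol they differed, with dnmt1.S (-1.71) and dnmt1.L (-1.55) lower, smtn.S higher (0.72) and mettl2b.L uncalled (0.06). The maintenance DNA methyltransferase mRNA dnmt1.S had 125, 167 and 191 CPM in egg ER against 848, 804 and 822 CPM in oocyte ER (-2.36 ± 0.12, edgeR adjusted p = 1.0e-11). Its homeolog dnmt1.L had 167, 232 and 248 CPM in egg ER against 1000, 961 and 973 CPM in oocyte ER (-2.18 ± 0.12, edgeR adjusted p = 1.9e-11). In each the lowest egg library was replicate 1, and the oocyte libraries were close together. In the pellet dnmt1.S rose by 0.62, so that the ER change differed from the pellet change by -2.98 (edgeR adjusted p = 9.1e-12). Of its copies 9.7 ± 3.8% lay in the ER in eggs and 35.3 ± 3.5% in oocytes. The microRNA-processing nuclease mRNA drosha.S and the centriole protein mRNA cep152.L also fell in the ER, by 1.55 and 1.48, and rose in the pellet, with ER against pellet differences of -2.83 and -2.82. The nonsense-mediated decay helicase mRNA upf1.S fell by 1.85 ± 0.08 with 55.5, 72.7 and 69.6 CPM in egg ER against 240, 247 and 225 CPM in oocyte ER. Its cytosol change was -1.08, and its pellet change of -0.08 did not pass the test. The methyltransferase mRNA mettl2b.L fell by 1.64 ± 0.10 in the ER and rose by 0.41 in the pellet.

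**Figure D3:**
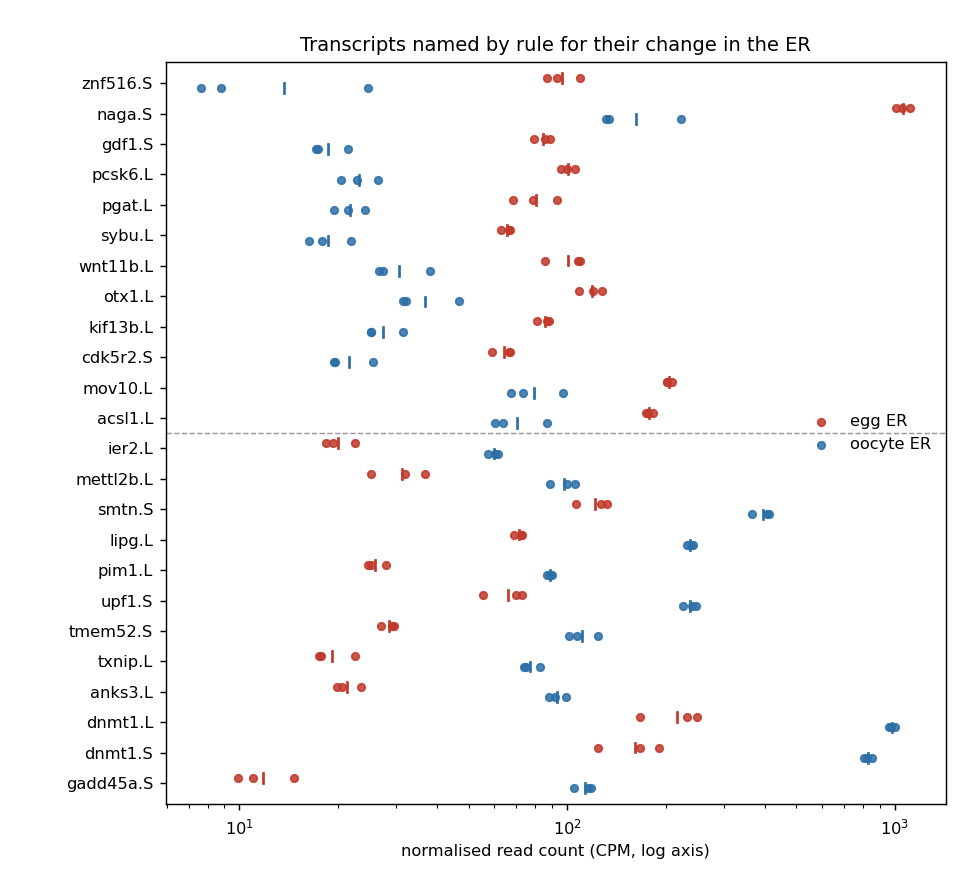
Normalised read counts (CPM, log axis) of the 12 transcripts with the largest rises and, under the dashed line, the 12 with the largest falls in egg ER among called, named transcripts whose log2 CPM averaged 5 or more and whose groups did not overlap, for each egg ER and oocyte ER library (points) with group means (ticks). In every row the 3 egg libraries lie clear of the 3 oocyte libraries, as the rule requires.

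The change in the ER was next set against the change in the cytosol of the same stages, in the same fit. Of 25938 transcripts, 3226 had a higher change in the ER than in the cytosol (12.4%) and 3823 a lower one (14.7%). Under spike-in scaling they were 128 and 14862. The 5 highest differences belonged to mRNAs of secreted, lysosomal and membrane proteins that were lower in egg cytosol and higher in egg ER than in the same fraction of oocytes. The cysteine protease mRNA ctsv.L had 251, 247 and 273 CPM in egg ER against 215, 201 and 208 CPM in oocyte ER, a rise of 0.31 ± 0.07, while it fell by 3.46 in the cytosol. The difference was 3.76 ± 0.11 (edgeR adjusted p = 9.3e-16). In eggs 52.6 ± 10.8% of its copies lay in the ER, against 38.6 ± 4.7% in oocytes. The lysosomal protease mRNA ctsb.L rose by 0.61 in the ER and fell by 2.97 in the cytosol (difference 3.58). The tight junction protein mRNAs cldn6.1.L and cldn6.1.S differed by 3.57 and 3.43, and the secreted guidance cue sema3d.S by 2.94. On the attomolar scale none of these 5 passed the test in the ER, with log2 fold changes of -0.42 to 0.10.

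At the other end were mRNAs with most of their copies in the oocyte ER and fewer in the egg ER. The RNA polymerase II subunit mRNA polr2a.L had 105, 89.3 and 72.1 CPM in egg ER against 141, 153 and 156 CPM in oocyte ER (-0.76 ± 0.13), and it rose by 1.92 in the cytosol. The difference was -2.68 (edgeR adjusted p = 1.2e-09). Of its copies 31.3 ± 3.1% lay in the ER in eggs and 80.2 ± 7.1% in oocytes. The microtubule-associated protein mRNA map4.S had 82.2, 74.7 and 71.4 CPM in egg ER against 210, 220 and 174 CPM in oocyte ER (difference -2.47), with shares of 16.6 ± 1.3% in eggs and 66.9 ± 5.0% in oocytes. The smoothelin mRNA smtn.S, of an actin-binding protein, had 107, 127 and 132 CPM in egg ER against 413, 408 and 366 CPM in oocyte ER (difference -2.42), with shares of 21.2 ± 5.3% in eggs and 75.6 ± 3.5% in oocytes. The exonuclease mRNA exd2.L differed by -2.93 and the aspartate aminotransferase mRNA got1.S by -2.26. In these 5 the share of copies in the ER fell to 16.6 to 31.3% in eggs, against 59.4 to 80.2% in oocytes.

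Not all mRNAs concentrated in the oocyte ER left it to this degree. The myosin phosphatase-interacting protein mRNA mprip.L had 56.8 ± 1.8% of copies in the egg ER and 82.2 ± 5.8% in the oocyte ER, and mprip.S had 59.8 ± 4.6% in eggs and 77.3 ± 4.4% in oocytes. Their rises in the ER (0.25 ± 0.09 and 0.18 ± 0.06) were lost without egg replicate 1, egg replicate 2 or oocyte replicate 3 (0.14 to 0.26), and that of mprip.L also without oocyte replicate 1 or 2. They stood at -0.47 and -0.52 under spike-in scaling. By contrast lima1.L, of another actin-binding protein, fell by 1.22 ± 0.11, with 27.7 ± 8.9% of copies in the egg ER and 71.1 ± 5.4% in the oocyte ER. The S copy of the kinase aurka fell by 1.45 ± 0.09, with 18.4 ± 4.6% in the egg ER and 67.0 ± 4.3% in the oocyte ER.

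**Figure D4:**
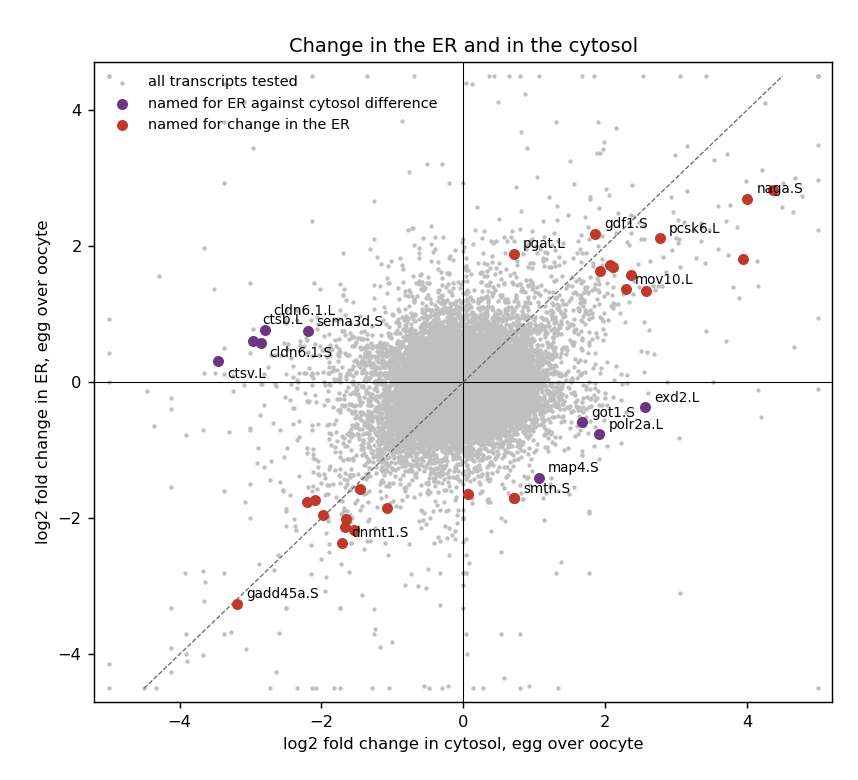
Log2 fold change of egg over oocyte in the ER (vertical) against that in the cytosol (horizontal) by edgeR, for all 25938 transcripts (grey, with extreme values drawn at the edge), the 24 named by rule for their ER change (red) and the 10 named for their ER against cytosol difference (purple), all with a mean log2 CPM of 5 or more and with smtn.S, named for both, in red. The dashed line marks equal change. The purple points at the left, among them ctsv.L at -3.46 and 0.31, fell in the cytosol but not in the ER, and those at the right, such as polr2a.L at 1.92 and -0.76, rose in the cytosol and fell in the ER.

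The change in the ER was also set against that in the pellet. Of 25938 transcripts, 4180 had a higher change in the ER (16.1%) and 5158 a lower one (19.9%), and under spike-in scaling 293 and 9347. The 5 highest were pcsk6.L (3.91), naga.S (3.76), znf516.S (3.56), gdf1.S (3.42 for gene47490) and wnt11b.L (3.36), which fell in the egg pellet by 0.73 to 1.80. The 5 lowest were dnmt1.S (-2.98), drosha.S (-2.83), cep152.L (-2.82), dnmt1.L (-2.75) and smtn.S (-2.45), which rose in the egg pellet. The ER against cytosol and ER against pellet differences share the 6 ER libraries, while the 3 fractions' own comparisons use separate libraries. The authors' percent values are given per replicate number over the 3 fractions, yet the main fit treated all libraries as independent. Any pairing of same-numbered fractions within a stage was not modelled there. Of the 3218 transcripts that rose in the ER, 40.7% fell in the pellet, against 21.4% of all tested, and 34.2% rose in the pellet, against 22.3% of all tested. In the cytosol 35.6% of them rose, against 18.4% of all tested, and 24.98% fell, against 18.6%. Of the 4184 that fell, 42.4% rose in the pellet and 23.5% fell there, while 43.8% fell in the cytosol and 23.2% rose there. Transcripts called in the ER were thus called more often than all tested in both directions of both other fractions. They were also more abundant than uncalled transcripts. The median level in oocyte ER was 21.3 TPM for rises, 37.3 TPM for falls and 4.40 TPM for uncalled transcripts. The shares of all tested were not matched for abundance, and its part in this excess was not tested. The most frequent pattern among the rises was higher in ER and cytosol with lower in pellet (986 transcripts). Among the falls it was lower in ER and cytosol with higher in pellet (1182 transcripts). Only 40 transcripts rose in all 3 fractions and 300 fell in all 3. The 3 fold changes of a transcript are each relative to the typical transcript of their fraction.

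The mRNAs of the ER's own machinery had a median near that of all transcripts. Of 141 translocon and folding mRNAs, 17 rose and 35 fell, with a median of -0.03. Without egg replicate 1 the counts were 23 and 23, so the excess of falls was not seen without that library. The BiP chaperone mRNA hspa5.S had 309, 299 and 307 CPM in egg ER against 312, 293 and 307 CPM in oocyte ER (0.00 ± 0.05, edgeR adjusted p = 0.96). The translocon channel mRNA sec61a1.S had 63.8, 63.5 and 61.1 CPM in egg ER against 91.3, 90.9 and 91.2 CPM in oocyte ER (-0.54 ± 0.06, edgeR adjusted p = 1.1e-06), and sec61a1.L fell by 0.35 ± 0.05. These libraries hardly varied within a group, and the sec61a1 groups did not overlap. At the ends of the list, the membrane insertase subunit mRNA emc7.S rose by 0.79 ± 0.07 and the oligosaccharyltransferase subunit mRNA krtcap2.L fell by 1.09 ± 0.13. Spike-in scaling left emc7.S at 0.07, without a call.

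Unfolded protein response mRNAs had 7 of 26 higher and 5 lower, or 6 and 3 without egg replicate 1. The sensor kinase mRNA eif2ak3.S, of PERK, rose by 0.53 in the ER and fell by 2.25 in the cytosol, and ern2.S, of an IRE1 sensor, rose by 0.96 ± 0.09 against a fall of 2.07 in the cytosol. The degradation factor mRNA herpud1.L fell by 1.00 ± 0.10. Of 85 ER shape and lipid mRNAs 18 rose and 18 fell, against 19 and 11 without egg replicate 1 and 12 and 12 without oocyte replicate 2. The reticulon mRNA rtn3.S, of a membrane-curving ER protein and itself in the extremely vegetal class, had 32.9, 26.7 and 32.3 CPM in egg ER against 3.34, 4.18 and 2.08 CPM in oocyte ER (3.27 ± 0.17, edgeR adjusted p = 1.5e-11). Its homeolog rtn3.L rose by 0.93. The sterol-regulated factor mRNA srebf2.L fell by 0.72 ± 0.06. The list of ER calcium handling had 8 of 29 higher and 2 lower, with a median of 0.11. The falls were 1 without egg replicate 1 and 1 without oocyte replicate 2. The calcium pump mRNA atp2a3.L rose by 0.72 ± 0.08, the IP3 receptor mRNA itpr1.S by 0.32 ± 0.08, and the calcium sensor mRNA stim1.L fell by 0.95 ± 0.07. For itpr1.S the egg ER libraries had 212, 206 and 187 CPM and the oocyte ER libraries 157, 180 and 147 CPM. Spike-in scaling put itpr1.S at -0.39 and atp2a3.L at 0.01.

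Receptor, secreted and lysosomal mRNAs had more rises than falls. Of 169 receptor and adhesion mRNAs, 50 rose (29.6%) and 12 fell (7.1%), with a median of 0.13. Without oocyte replicate 2 they were 41 and 12, and without egg replicate 1 44 and 14. Against the cytosol 47 had a higher change and 18 a lower one. Among the rises were the transmembrane ephrin efnb1.L (1.54 ± 0.09), the Wnt receptor fzd1.L (0.81), the endocytic receptors lrp1.S (0.77) and ldlr.L (0.60), and the FGF receptors fgfr2.L (1.04) and fgfr1.L (0.59). Of 104 tested secreted and matrix mRNAs 23 rose and 8 fell (22 and 4 without egg replicate 1, 19 and 5 without oocyte replicate 2), and 52 more were too low to test. Their median was 0.02. Both homeologs of ctsb rose, by 0.61 and 0.62, and so did serpinh1.L, of a collagen chaperone (0.58). Of 57 lysosomal mRNAs 17 rose and 5 fell (18 and 3 without egg replicate 1, 16 and 2 without oocyte replicate 2). These included lamp1.S (0.40), a lysosomal membrane protein, and npc1.L (0.61), a cholesterol transporter. Of 342 solute carrier mRNAs 69 rose and 41 fell, and 81 had a higher and 42 a lower change than in the cytosol. On the attomolar scale 2 of the 169 receptor and adhesion mRNAs were higher and 76 lower, with a median of -0.41. There 7 of the 104 secreted and matrix mRNAs were higher and 43 lower. Lysosomal mRNAs had 3 of 57 higher and 31 lower, and solute carriers 6 of 342 higher and 190 lower. The background on that scale was 0.856% higher and 58.3% lower over all transcripts, with a median of -0.55.

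Golgi and vesicle coat mRNAs had 21 of 142 higher and 32 lower, with sec24d.L, of a COPII coat protein, at -0.996 ± 0.06 and ap2m1.S at 0.45 ± 0.06. Rab GTPases had 1 of 79 higher and 22 lower, which became 1 and 13 without egg replicate 1. The proton pump list had 2 of 29 higher and 5 lower (2 and 3 without egg replicate 1, 2 and 2 without oocyte replicate 2), and egg coat mRNAs 3 of 10 higher and 0 lower, or 1 and 0 without oocyte replicate 2. For egg coat members the values were small, with zpd.L at 0.20 and zp2.L at 0.24.

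**Figure D5:**
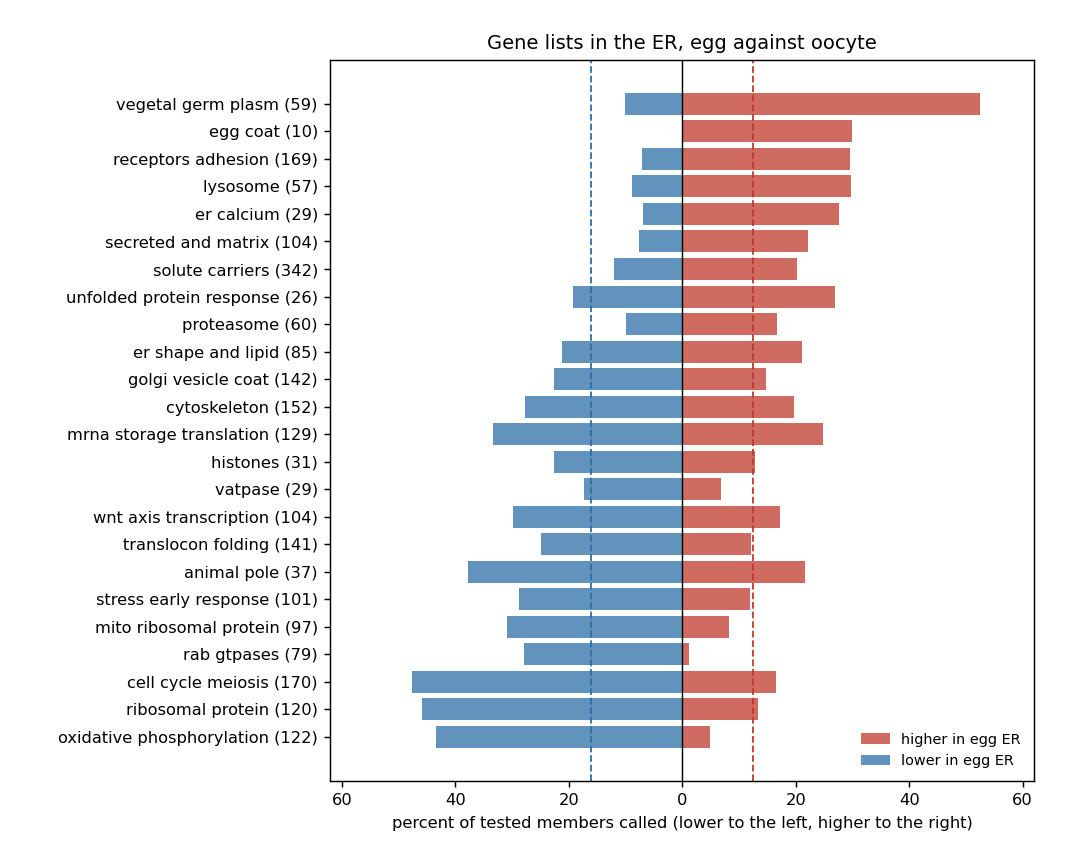
Percent of the tested members of each gene list that were higher (right) or lower (left) in egg ER by edgeR, with the number of members tested in parentheses. The dashed lines mark the shares over all transcripts, 12.4% higher and 16.1% lower, which were not matched to the lists by abundance. Vegetal germ plasm mRNAs, at 52.5% higher, extend farthest to the right, and cell cycle, ribosomal protein and oxidative phosphorylation mRNAs extend farthest to the left.

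Cell cycle and meiosis mRNAs had the highest share of falls among the 26 lists. Of 170 members 81 fell (47.6%) and 28 rose (16.5%), with a median of -0.18. These were 68 and 26 without egg replicate 1. The cyclin mRNA ccnb1.S had 123, 164 and 186 CPM in egg ER against 332, 299 and 329 CPM in oocyte ER (-1.02 ± 0.11, edgeR adjusted p = 4.7e-07), and ccnb1.L fell by 0.85 ± 0.12. The cohesin subunit mRNA smc3.L fell by 1.46 ± 0.07, with 115, 123 and 129 CPM in egg ER against 333, 353 and 328 CPM in oocyte ER. The anaphase activator mRNAs cdc20.S and cdc20.L fell by 1.26 and 1.14, ccne1.S by 1.24 and the origin recognition mRNA orc1.L by 1.22. Rises were smaller, with the replication helicase subunit mRNA mcm3.L at 0.86 ± 0.07 and cdk1.S, the mitotic kinase, at 0.63. The mos.L mRNA, of the kinase that drives meiotic maturation, had 293, 309 and 332 CPM in egg ER against 345, 345 and 365 CPM in oocyte ER (-0.17 ± 0.05). That call was lost without egg replicate 1 (-0.11), egg replicate 2 (-0.17) or oocyte replicate 3 (-0.15).

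Against the cytosol the cell cycle list did not lean the same way. There 54 of its members had a higher change in the ER and 34 a lower one. In the cytosol itself 34 members rose and 81 fell, and how many of these are the 81 that fell in the ER was not counted. Against the pellet 33 were higher and 94 lower. Over all tested, 12.4% were higher and 14.7% lower against the cytosol, and 16.1% higher and 19.9% lower against the pellet. In the cytosol 18.4% of all tested rose and 18.6% fell. Maternal mRNA storage and translation factors were split, with 32 of 129 higher and 43 lower. The CPEB translational regulator mRNA cpeb1.S had 189, 232 and 242 CPM in egg ER against 391, 410 and 374 CPM in oocyte ER (-0.82 ± 0.08), and cpeb1.L fell by 0.67 ± 0.09. The splicing regulator mRNAs khsrp.S and khsrp.L fell by 1.37 and 1.21, while zar2.S, of an oocyte translational repressor, rose by 0.66 and eif4enif1.S, of an eIF4E-binding protein, by 0.61. Of 104 Wnt axis and transcription mRNAs 18 rose and 31 fell, with e2f1.L at 1.09 ± 0.06 and csnk1e.S at -1.02 ± 0.06. The beta-catenin mRNA ctnnb1.S fell by 0.51 ± 0.09, whereas ctnnb1.L was at -0.02 ± 0.06 (edgeR adjusted p = 0.88).

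The lists of ribosomal protein and oxidative phosphorylation mRNAs had more falls than rises in the ER and more rises than falls in the cytosol. How many members did both was not counted. Of 120 cytosolic ribosomal protein mRNAs 55 fell (45.8%) and 16 rose (13.3%), with a median of -0.25, while 75 rose in the cytosol and 4 fell there. The ER change was lower than the cytosol change for 77 and higher for 1. Over all tested, 18.4% rose and 18.6% fell in the cytosol, and the ER change was lower for 14.7% and higher for 12.4%. The mRNA rps2.L had 7.10, 8.21 and 7.03 CPM in egg ER against 16.8, 20.4 and 22.3 CPM in oocyte ER (-1.41 ± 0.12), and rps25.L rose by 0.70 ± 0.11 in the ER. Spike-in scaling put rps25.L at -0.02. Of 122 oxidative phosphorylation mRNAs 53 fell (43.4%) and 6 rose, with a median of -0.22. Without egg replicate 1 they were 37 and 6. In the cytosol itself 85 rose and 5 fell, and against the cytosol 85 had a lower change and 1 a higher one. The cytochrome oxidase subunit mRNA cox7a2.L had 12.3, 11.9 and 12.99 CPM in egg ER against 21.9, 27.0 and 22.7 CPM in oocyte ER (-0.94 ± 0.09). Mitochondrial ribosomal protein mRNAs had 8 of 97 higher and 30 lower, which became 8 and 19 without egg replicate 1. Cytoskeleton mRNAs had 30 of 152 higher and 42 lower in the ER, and 14 higher and 54 lower against the cytosol. Of 31 histone mRNAs 4 rose and 7 fell, with hist2h2ab.S at 0.46 ± 0.07 and the oocyte linker histone mRNA h1foo.S at -0.75 ± 0.11. Without egg replicate 1 the histone counts turned to 8 and 4. Proteasome mRNAs had 10 of 60 higher and 6 lower.

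Transcript length moved with the calls, most in egg replicate 1. The median length was 4877 nucleotides among transcripts that rose, 3771.5 among those that fell and 3936 among the rest. In egg replicate 1 the median log2 difference from the oocyte mean went up with length, at -0.09 in the shortest of 10 equal length bins and 0.11 in the longest. In egg replicate 2 these were -0.05 and 0.03, and in egg replicate 3 -0.03 and -0.05. Ribosomal protein and oxidative phosphorylation mRNAs are short, and the part of length in their counts was not tested.

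The transcripts higher in egg ER on the attomolar scale differed in their pellet. These 222 transcripts fell into 112 that were lower in the egg pellet, 76 that were higher there and 34 that were uncalled there. Without egg replicate 1 the 222 became 336. Of the first group 40 belong to the vegetal classes, and their medians were 11.7 TPM in egg ER and 3.74 TPM in oocyte ER. Of the 76 none belong to these classes, and their medians were 1.47 TPM in egg ER and 0.37 TPM in oocyte ER. The vegetal classes hold only 160 of the 25938 transcripts tested, so 0 of 76 is near the share over all and is not itself a result. Of the 222, 175 have no class. The following genes of the 76 were chosen after their values were seen. The secreted protein mRNA crispld2.L had 32.0, 31.9 and 25.1 CPM in egg ER against 3.37, 2.26 and 2.93 CPM in oocyte ER (3.37 ± 0.22, edgeR adjusted p = 3.8e-10). It rose by 3.37 in the pellet too. The matrix protein mRNA thbs2.L rose by 2.38 ± 0.26, the endothelial junction mRNA cldn5.L by 2.46 ± 0.25 and the steroid dehydrogenase mRNA hsd3b1.L by 2.37 ± 0.25. The collagenase mRNA mmp1.S rose by 2.92 ± 0.43 and was rarer, reaching 3.096 CPM in egg ER. In the oocyte ER none of these 5 exceeded 5.57 CPM in a library.

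Markers of follicle cells were set beside this result. Over the whole list of 63 matched transcripts, 42 were tested, 7 rose and 3 fell, and the summed level was 444 to 560 TPM in egg ER and 572 to 614 TPM in oocyte ER. Its most abundant members were krt8.L, krt18.L and cyp17a1.L, a steroid hydroxylase mRNA that rose by 0.73, while krt18.L fell by 0.41. The 10 defining transcripts, which include amh, fshr, col1a1 and pecam1, summed to 1.94 to 3.105 TPM in egg ER and 1.89 to 3.05 TPM in oocyte ER. The summed level of the whole list thus came mostly from other members, and which cells carry those was not tested. The part of cells other than the egg in the rise of the 76 transcripts was not tested.

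Xenopus laevis is allotetraploid, so most genes have an L and an S homeolog. Among 4413 pairs with both copies tested, 64.4% had the same sign. Both copies were called in 856 pairs, with 284 both higher, 480 both lower and 92 called in opposite directions. The glycolytic enzyme gapdh was an example. Its L copy had 158, 175 and 191 CPM in egg ER against 103, 104 and 110 CPM in oocyte ER (0.73 ± 0.08), while its S copy had 90.5, 94.4 and 95.5 CPM in egg ER against 112, 125 and 124 CPM in oocyte ER (-0.37 ± 0.10). On both copies the groups did not overlap in CPM, so neither value was constant on the edgeR scale. On the attomolar scale the L copy stood at 0.02 and the S copy at -1.10. Under spike-in scaling gapdh.L stood at 0.02. The widest opposite pair was wbp11, of a splicing factor, with the L copy at 0.19 and the S copy at -1.34. Reads of near-identical homeologs can be split by the quantification, so values of single copies are uncertain.

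In the authors' deposited table, the ratio of egg ER to oocyte ER means on the attomolar scale was 4.18 for naga.S, with a q-value of 0.022, and 0.116 for dnmt1.S, with a q-value of 0.018. Among the 12 highest transcripts the authors' ratios in that table ran from 1.62 to 4.52, and their q-values from 0.022 to 0.085.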

How the data were processed

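RNA was sequenced from cytosol, ER and pellet fractions of oocytes and eggs, 3 libraries per stage and fraction, on a NovaSeq with 101 cycles per end, after rRNA depletion and stranded library preparation, per the labels' protocols. Estimated counts and TPM were made by the authors with kallisto 0.46.2 after demultiplexing with bcl2fastq 2.20, according to the submitters' processing notes, which do not name the transcript set. The authors converted TPM to attomolar concentration by regression on 5 spike-in RNAs, per the labels. In the deposited tables, percent values give each transcript's share of its attomolar sum over the 3 fractions, and a ratio of egg to oocyte ER means stands beside a q-value whose test is not stated. Transcript names and animal-vegetal classes were those of the deposited tables, and 28 columns of those tables were not used.

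The estimated counts as deposited were first rounded to integers. The 5 spike-ins and 1 transcript without a name were left out. Of 51032 rows per library, 25938 transcripts passed edgeR's filterByExpr. edgeR 4.0.16 (R 4.3.3) fitted its quasi-likelihood model with TMM factors to all 18 libraries in 6 groups, and tested egg ER against oocyte ER and the differences of this change from those in cytosol and pellet. limma 3.58.1 tested log2(attomolar + 0.01) over the 6 ER libraries, so its fold changes understate those of low transcripts. P-values were adjusted by Benjamini-Hochberg over all transcripts tested, with calls at 0.05. DESeq2 1.42.0 was an alternative. Single values were compared by exact two-sided permutation tests. Counts of 23151603 to 29792589 per ER library limit the precision of rare transcripts. The code of the fit was also run on simulated libraries that were independent and equal in spread. That setting differs from the uneven egg libraries here, and its outcome is not reported.

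The rule for named transcripts took the 12 highest and 12 lowest called changes in the ER, among transcripts that had a symbol, whose groups did not overlap and whose log2 CPM averaged 5 or more, the 5 highest and 5 lowest of each difference, the highest and lowest called member of each list whose log2 CPM averaged 3 or more, and a fixed panel of genes. Other transcripts named (among them fzd1.L, lrp1.S, ldlr.L, fgfr1.L, fgfr2.L, cdc20, orc1.L, khsrp, jun.L, fos.L, nr4a1.L, rtn3.L, eif2ak3.S, serpinh1.L, lamp1.S, npc1.L, zar2.S, zp2.L and wbp11) were chosen after their values were seen. The gene lists and comparisons were chosen with earlier results of these data known. Shares over all tested transcripts, given beside lists and classes, were not matched for abundance, and its part in their counts was not tested. Counts of lists and classes without egg replicate 1 or oocyte replicate 2 were an alternative chosen after seeing the data. Protein features and sequences were not analysed here.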

Additional observations from a re-analysis of the deposited data

Results flagged for a closer look

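The change in the ER differed from that in the cytosol, by the interaction test in edgeR, for 3226 transcripts that changed upward and 3823 that changed downward relative to the cytosol. Named among them were ctsv.L (3.76), ctsb.L (3.58), cldn6.1.L (3.57), cldn6.1.S (3.43) and sema3d.S (2.94) at the upper end. At the lower end were exd2.L (-2.93), polr2a.L (-2.68), map4.S (-2.47), smtn.S (-2.42) and got1.S (-2.26). Values are differences of log2 fold changes, ER minus cytosol.

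The change in the ER differed from that in the pellet by the same test for 4180 transcripts upward and 5158 downward. At the upper end were pcsk6.L (3.91), naga.S (3.76), znf516.S (3.56), gdf1.S (3.42) and wnt11b.L (3.36). At the lower end were dnmt1.S (-2.98), drosha.S (-2.83), cep152.L (-2.82), dnmt1.L (-2.75) and smtn.S (-2.45). Both sets of differences use the same 6 ER libraries. Groups of 3 libraries are too small for a test of single outlying values.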

How the results depend on the processing

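The calls in the ER, 3218 higher and 4184 lower, were 205 and 15894 with spike-in scaling, 340 and 302 at 2-fold or more, and 718 higher by limma on log2(TPM + 0.1) against 5264 lower. At an adjusted p under 0.01, 2037 were higher. DESeq2 gave 3814 higher and 3849 lower. Spike-in scaling also moved the differences from the cytosol to 128 and 14862 and from the pellet to 293 and 9347. Leaving out 1 library at a time gave 2598 to 3066 higher and 3209 to 3948 lower in the ER, 2755 to 3164 and 3352 to 3732 against the cytosol, and 3815 to 4238 and 4724 to 5073 against the pellet. On the attomolar scale it gave 165 to 336 higher, the most without egg replicate 1, and 9945 to 15723 lower, the fewest without oocyte replicate 3. With 1 library left out, the ratio of attomolar sums stayed between 0.640 and 0.717 and the difference in median ER share between -15.9 and -13.4 percentage points. The ratio was 0.601 without the 20 most abundant transcripts and 0.604 from counts over spike-in counts. The cause of these shifts was not tested.

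Spike-in scaling shifted the median of all transcripts by -0.71, so rises smaller than about that size change sign by its construction. This held for 15 named transcripts, of which mprip.S alone passed the test as lower (edgeR adjusted p = 0.0498): ap2m1.S (-0.26), pou5f3.2.S (-0.30), cebpd.S (-0.10), ovch1.L (-0.24), rps25.L (-0.023), mrps18c.S (-0.13), psma3.L (-0.25), atp6v1e1.L (-0.48), rab27b.S (-0.46), hist2h2ab.S (-0.26), slc4a1.L (-0.11), itpr1.S (-0.39), vegt.S (-0.29), mprip.L (-0.47) and mprip.S (-0.52). Deviations from the group mean of same-numbered egg and oocyte ER libraries correlated at r = -0.004, -0.007 and 0.047. These values cannot tell whether such libraries share a frog or culture, which the labels do not name. With the replicate number as a block the calls were 3511 higher and 4523 lower in the ER, 3457 and 4070 against the cytosol, 4411 and 5371 against the pellet, and 286 and 16017 on the attomolar scale. Depth limits rare transcripts. Scaling by summed spike-in counts rests mostly on egfp, with renilla at 7 to 12 counts in egg ER and 9 to 10 in oocyte ER. The planned comparison of protein features was not run.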
